A study of Mus musculus with 7 samples.

Results

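The creatine kinase and phosphagen system of the mouse heart was represented here by 7 genes: the creatine kinases Ckm, Ckmt2 and Ckb, the creatine transporter Slc6a8, the creatine synthesis enzymes Gatm and Gamt, and the adenylate kinase Ak1. Every probe set that the platform annotation assigns to exactly 1 symbol, with that symbol among the 7, was taken, which gave 9 of the 22626 probe sets on the array and 7 of its 12393 named genes. Of the 9, 6 were bright enough to be tested, and Gatm, Gamt and a second probe set of Ak1 were not. Heart samples labelled wild type (WT, n = 4) were compared with samples from mice that lack Krüppel-like factor 15 (KLF15-null, n = 3), a zinc-finger transcription factor of muscle and liver. All 7 samples carry the labels C57/BL6 and male, from mice 3 to 4 months old that had been fasted for 18 h. Each sample is 1 Affymetrix 3' expression array of RNA from whole heart, and values are deposited log2 signals per probe set. How the null allele was made, whether it is confined to any cell type and whether WT mice were littermates are not stated in the sources used here. The labels number the samples within a genotype and do not say that each is from a separate mouse, so n counts arrays and p-values measure only the spread between these samples. A WT or KLF15-null heart below means 1 such sample. In RNA of whole hearts, fewer cells of a type and less RNA per cell cannot be told apart.

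Creatine kinase moves a phosphoryl group between ATP and creatine, so that phosphocreatine buffers ATP in cells with large and rapid swings in demand. In cardiac muscle a mitochondrial isoform loads creatine where ATP is made, and cytosolic isoforms return ATP beside the myofibrils and the calcium pump. The heart makes little creatine and takes it up from blood through a sodium-coupled transporter, while adenylate kinase offers a second route that recovers ATP from ADP and yields AMP.

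The labels were checked first. The log2 signal of Klf15 was 8.68, 8.98, 8.73 and 9.08 on the WT arrays and 6.52, 6.23 and 6.23 on the KLF15-null arrays, on a single probe set whose position relative to the deleted part is not stated. Against the male label, the brightest Xist probe set lay between the 82.2nd and the 93.9th percentile of all probe sets on the 7 arrays, and all 7 gene-specific probe sets of Eif2s3y, Kdm5d, Uty and Usp9y were below the filter level; this held for both genotypes. Array medians were 6.22 to 6.33, but the brightest 10% of probe sets were higher in KLF15-null hearts by a median of 0.30. On the deposited scale the median difference of all tested probe sets was 0.00. Summed cardiomyocyte markers were bright on every array, with signals between 16.82 and 17.01 in WT and between 16.94 and 17.13 in KLF15-null hearts on the log2 scale. Single markers varied: Myl7, an atrial myosin light chain named after its values were seen, averaged 6.64 ± 1.45 (SD, n = 4) on the WT arrays against 8.42 ± 2.40 (SD, n = 3) on the others, and the groups overlapped (adjusted p = 0.189).

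KLF proteins bind CACCC and GC-rich sequence, so the 250 bases before the start of the 3 creatine kinase genes are shown. On the deposited scale Ckmt2 moved unequally to Ckm and to Ckb, while Ckm and Ckb were not told apart, as given below. Promoters of 6 of the 7 genes were matched by symbol in RefSeq (GRCm38.p6), and that of Slc6a8 was not. The sequences run 5′ to 3′ on the strand of the gene, with matches to CACCC or GGGCGG on either strand in capitals.
Ckm (chr7:19410844-19411093, plus strand): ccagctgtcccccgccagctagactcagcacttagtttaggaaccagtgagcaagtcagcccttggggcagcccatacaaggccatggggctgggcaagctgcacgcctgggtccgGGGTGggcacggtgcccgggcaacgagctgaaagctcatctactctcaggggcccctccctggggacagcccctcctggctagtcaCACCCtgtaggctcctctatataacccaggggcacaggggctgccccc
Ckmt2 (chr13:91876886-91877135, minus strand): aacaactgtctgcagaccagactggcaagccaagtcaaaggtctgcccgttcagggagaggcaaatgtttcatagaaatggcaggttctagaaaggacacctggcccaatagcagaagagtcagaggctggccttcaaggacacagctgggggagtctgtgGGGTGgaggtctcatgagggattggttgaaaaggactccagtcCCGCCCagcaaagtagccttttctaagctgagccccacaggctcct
Ckb (chr12:111672339-111672588, minus strand): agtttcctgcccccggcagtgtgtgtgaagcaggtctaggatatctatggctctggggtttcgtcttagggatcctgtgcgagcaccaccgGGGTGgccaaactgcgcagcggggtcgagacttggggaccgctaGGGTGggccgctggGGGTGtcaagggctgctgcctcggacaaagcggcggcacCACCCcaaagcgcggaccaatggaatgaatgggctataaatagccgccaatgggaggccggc
The Ckm window held 2 matches to CACCC, that of Ckmt2 1 and that of Ckb 4. GGGCGG was found in 1 place, before Ckmt2, and no match to it overlapped a CACCC match. The E-box pattern CANNTG, read the same on both strands and not capitalised, had 1 match before Ckm, 4 before Ckmt2 and 0 before Ckb. Of 32851 promoter windows of the same length in that table, 52.0% held CACCC, 32.7% held GGGCGG and 66.2% held CANNTG, so the presence of CACCC is common to most promoters. A match describes the letters and does not show binding.

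Among the 6 tested probe sets, Ckmt2 and 1 of the 2 probe sets of Slc6a8 were higher in KLF15-null hearts and the other probe set of Slc6a8 was lower, while Ckm, Ckb and Ak1 did not pass the test. The test was limma's moderated linear model with Benjamini-Hochberg adjustment over all 13576 tested probe sets and a threshold of 0.05, and every adjusted p below comes from it. Over all tested probe sets 26.8% were called higher and 23.8% lower, so 2 higher and 1 lower of 6 is close to the background. After quantile normalization the members had 1 higher and 4 lower, against 27.2% and 25.7% of all tested probe sets. After cyclic loess normalization they had 1 and 4, against 25.9% and 26.9%, and after median centring 2 and 1, against 32.9% and 19.1%. The groups did not overlap on the 3 called probe sets and overlapped on the other tested ones, so on 3 of 6. Over all tested probe sets, 27.6% had every KLF15-null value above every WT value and 25.4% had every value below. The members are close to this background. Within the groups, KLF15-null array 2 was the lowest KLF15-null array on 6 of the 6 tested probe sets and WT array 3 the highest WT array on 5 of them. The same arrays differed in overall brightness: the median of the brightest 10% of probe sets was 10.48 on KLF15-null array 2 against 10.63 and 10.60 on the other two, and 10.42 on WT array 3 against 10.20 to 10.23. The part of array brightness in the results below was not tested beyond the scalings given with them.

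**Figure D1:**
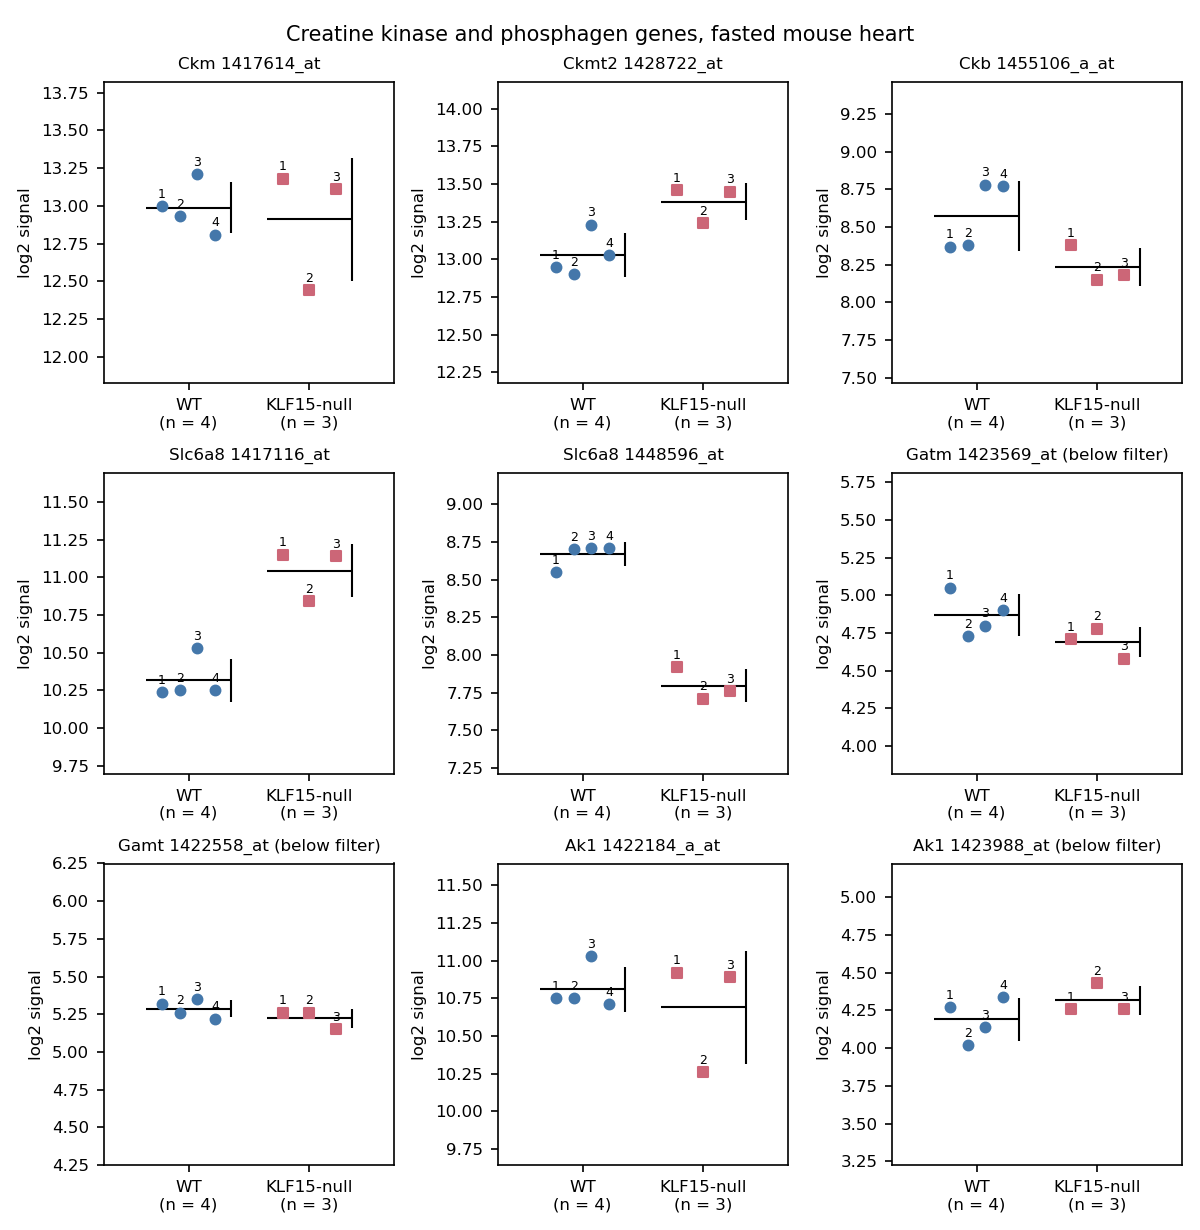
Log2 signal of each of the 9 probe sets (panels) in each WT and KLF15-null heart; points are arrays with their replicate number, horizontal lines are group means and vertical lines ± 1 SD. Every panel spans 2 log2 units. The 2 probe sets of Slc6a8 part the genotypes in opposite directions, from 10.32 to 11.04 and from 8.67 to 7.80 in the mean.

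Ckm codes for the muscle isoform of cytosolic creatine kinase, the main isoform of striated muscle. Its log2 signal was 13.00, 12.93, 13.21 and 12.81 in the 4 WT hearts and 13.18, 12.44 and 13.11 in the 3 KLF15-null hearts. KLF15-null arrays 1 and 3 lay inside the WT range and array 2 lay below it. The difference (KLF15-null minus WT, as throughout) was -0.08 (SE 0.18, adjusted p = 0.737), with a 95% interval from -0.49 to 0.33, or 0.713-fold to 1.25-fold. Without KLF15-null array 2 it was 0.16 (adjusted p = 0.345). After quantile normalization Ckm was called lower by -0.40 (adjusted p = 0.0478), and after cyclic loess normalization by -0.52 (adjusted p = 0.00814).

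Ckmt2 codes for the sarcomeric mitochondrial creatine kinase, which sits between the mitochondrial membranes next to the adenine nucleotide carrier. Its log2 signal was 12.95, 12.90, 13.23 and 13.03 in WT and 13.46, 13.24 and 13.45 in KLF15-null hearts. All 3 KLF15-null values lay above all 4 WT values, the closest pair being WT array 3 at 13.23 and KLF15-null array 2 at 13.24. The means differed by 0.36 (SE 0.11, adjusted p = 0.0223), which is 1.28-fold with a 95% interval from 1.08-fold to 1.52-fold. This call was lost without WT array 1 (0.33, adjusted p = 0.0605), WT array 2 (0.31, adjusted p = 0.0681), KLF15-null array 1 (0.32, adjusted p = 0.0812) or KLF15-null array 3 (0.32, adjusted p = 0.0927). It was also lost after quantile normalization (0.09, adjusted p = 0.299), and the sign turned after cyclic loess normalization (-0.10, adjusted p = 0.222). The rise of 0.36 stands beside the shift of 0.30 in the brightest 10% of probe sets, to which Ckmt2 belongs.

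Ckb codes for the brain isoform of cytosolic creatine kinase, which is found in many tissues, in smooth muscle and in the embryonic heart. Its probe set, of a type that matches several transcripts of a single gene, read 8.37, 8.38, 8.78 and 8.77 in WT and 8.38, 8.15 and 8.18 in KLF15-null hearts. WT arrays 3 and 4 were high, WT arrays 1 and 2 were at the level of KLF15-null array 1, and the groups overlapped. The difference was -0.34 (SE 0.14, adjusted p = 0.0678), with a 95% interval, unadjusted, from -0.65 to -0.03. It passed the threshold after quantile (-0.36, adjusted p = 0.0399) and cyclic loess normalization (-0.39, adjusted p = 0.0297) and with array weights (-0.30, adjusted p = 0.0432). Among other cell types that make Ckb, 2 of 5 smooth muscle markers were lower and none higher, against 19.6% and 27.4% of all genes. The summed signal of these markers was 11.20 to 11.76 in WT and 11.70 to 11.83 in KLF15-null hearts. Of the neuronal and glial markers, 0 of the 2 tested were called, though other probe sets of Mbp, named after its values were seen, were called at -0.32 and 0.34, and Tubb3, Map2 and Snap25 were below the filter level. Their part in the Ckb values was not tested.

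The 3 creatine kinases were compared with each other by the log2 difference of their signals within each array, which shows unequal change and not which isoform is more abundant. Ckmt2 minus Ckm was -0.06, -0.03, 0.01 and 0.22 in WT and 0.28, 0.80 and 0.34 in KLF15-null hearts. The KLF15-null arrays were all higher, by 0.44 in the mean, with a two-sided exact permutation p of 0.0286 (0.0429 adjusted over 3 pairs), the lowest value possible with the 35 splits of these arrays. Ckb minus Ckmt2 was -4.58, -4.51, -4.45 and -4.26 in WT and -5.08, -5.09 and -5.27 in KLF15-null hearts. Here the KLF15-null arrays were all lower, by -0.69 in the mean, with the same exact permutation p of 0.0286 (0.0429 adjusted). KLF15-null array 2, the low one for Ckm, did not stand apart in this pair. Ckb minus Ckm differed by -0.26, with overlapping groups and an exact permutation p of 0.314 (0.314 adjusted).

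On the deposited scale the mitochondrial isoform differed from each cytosolic isoform in its change between the genotypes. Quantile normalization, added for the pairs after seeing the data, gave 0.50 for Ckmt2 minus Ckm and -0.45 for Ckb minus Ckmt2. Both passed there (adjusted p = 0.0429 for each by exact permutation). After cyclic loess normalization the difference kept its direction, at 0.42 for Ckmt2 minus Ckm and -0.28 for Ckb minus Ckmt2, without passing (adjusted p = 0.129 for each by exact permutation). Ckmt2 minus Ckm was 0.27 without KLF15-null array 2, the array with the lowest Ckm. By mean signal Ckmt2 and Ckm lay at the 99.7th and 99.6th percentile of all probe sets and Ckb at the 82.1st. A within-array difference does not remove a shift that depends on brightness, such as the 0.30 of the brightest 10% of probe sets. The part of that shift in Ckb minus Ckmt2 was not tested beyond these scalings.

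**Figure D2:**
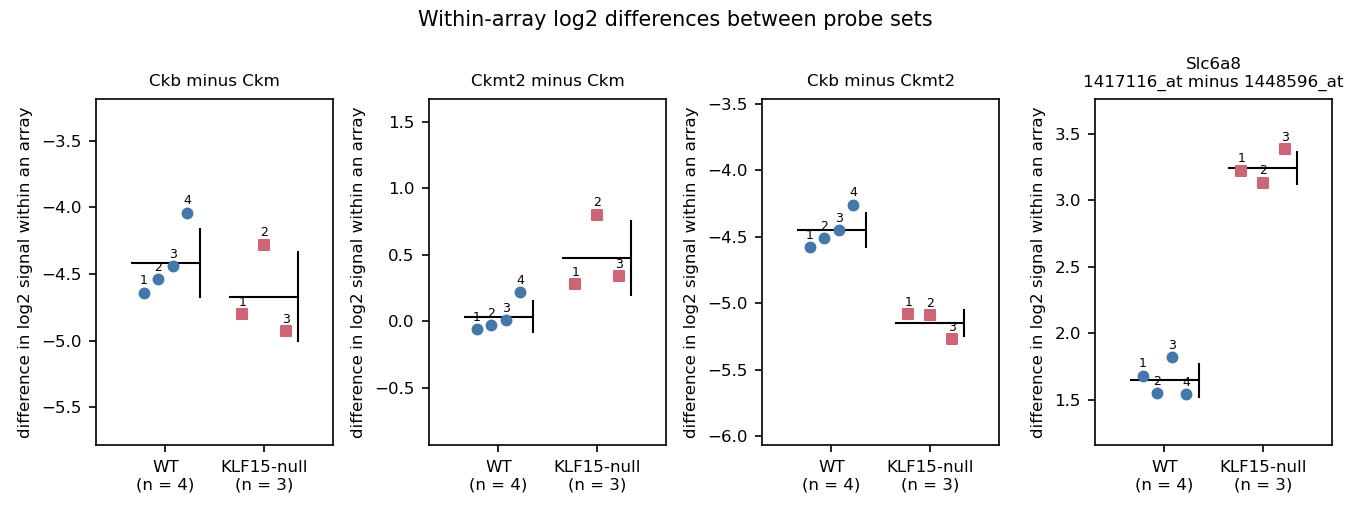
Difference in log2 signal between 2 probe sets within an array, for the 3 pairs of creatine kinases and the 2 probe sets of Slc6a8, in WT and KLF15-null hearts; points are arrays with their replicate number, horizontal lines are means and vertical lines ± 1 SD. The genotypes do not overlap for Ckmt2 minus Ckm, Ckb minus Ckmt2 and the Slc6a8 pair, and overlap for Ckb minus Ckm.

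Slc6a8 codes for the sodium- and chloride-dependent creatine transporter, the entry route of creatine into heart muscle. Its brighter probe set read 10.24, 10.25, 10.53 and 10.25 in WT and 11.15, 10.84 and 11.14 in KLF15-null hearts. All KLF15-null values were above all WT values, and the difference was 0.73 (SE 0.13, adjusted p = 0.00103), which is 1.65-fold with a 95% interval from 1.36-fold to 2.01-fold. Its dimmer probe set read 8.55, 8.70, 8.71 and 8.71 in WT and 7.92, 7.71 and 7.76 in KLF15-null hearts. On this one all KLF15-null values were below all WT values, with a difference of -0.87 (SE 0.10, adjusted p = 8.02e-05), or 0.546-fold.

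The platform annotation ties both probe sets to the same sequence record, so these calls concern a single gene and contradict each other in direction. No direction can be given for Slc6a8 mRNA as a whole from these data. The within-array difference between the 2 probe sets was 1.68, 1.55, 1.82 and 1.54 in WT and 3.22, 3.13 and 3.38 in KLF15-null hearts. It was larger in KLF15-null hearts by 1.60, with a two-sided exact permutation p of 0.0286, in a test chosen after the values were seen. The mean of the 2 probe sets differed by -0.07, with overlapping groups (exact permutation p = 0.429). Each call held under every scaling tried and with any single array left out, between 0.67 and 0.83 for the brighter probe set and between -0.94 and -0.83 for the dimmer one when arrays were left out. The brighter probe set was at 0.38 after quantile normalization. Slc6a8 was not alone in this: of 2748 genes with at least 2 tested probe sets, 576 (21%) were called higher on one and lower on another. That share covers genes with any number and type of tested probe sets, and is not matched to a gene with 2. Where the probes lie on the transcript is not given in the files, and the part of transcript ends, RNA quality or labelling was not tested.

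Gatm and Gamt code for the enzymes of creatine synthesis, arginine:glycine amidinotransferase and guanidinoacetate methyltransferase, which are mainly active in kidney, pancreas and liver. Both lay below the filter level of 5.74 on every array. Gatm read 5.05, 4.73, 4.80 and 4.90 in WT and 4.71, 4.78 and 4.58 in KLF15-null hearts. Gamt read 5.32, 5.26, 5.35 and 5.22 in WT and 5.26, 5.26 and 5.15 in KLF15-null hearts. The groups overlapped for both, with differences of -0.18 and -0.06 that were not part of the main test, and without the filter neither was called (limma adjusted p = 0.144 and 0.529). The table holds no detection calls, so these signals may be background and bound no level. The ubiquitous mitochondrial isoform Ckmt1, the remaining creatine kinase gene, was also below the filter on its 2 probe sets, between 4.36 and 4.89 on all arrays.

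Ak1 codes for cytosolic adenylate kinase, which exchanges phosphoryl groups between adenine nucleotides and works beside creatine kinase in muscle. Its bright probe set read 10.75, 10.75, 11.03 and 10.71 in WT and 10.92, 10.26 and 10.89 in KLF15-null hearts. As for Ckm, KLF15-null arrays 1 and 3 lay within the WT range and array 2 below it. The difference was -0.12 (SE 0.17, adjusted p = 0.581), with a 95% interval from -0.51 to 0.26, and it was 0.09 without KLF15-null array 2. After quantile and cyclic loess normalization Ak1 was called lower, by -0.49 (adjusted p = 0.00689) and -0.40 (adjusted p = 0.0190). The second probe set was below the filter, between 4.02 and 4.34 in WT and between 4.26 and 4.43 in KLF15-null hearts.

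**Figure D3:**
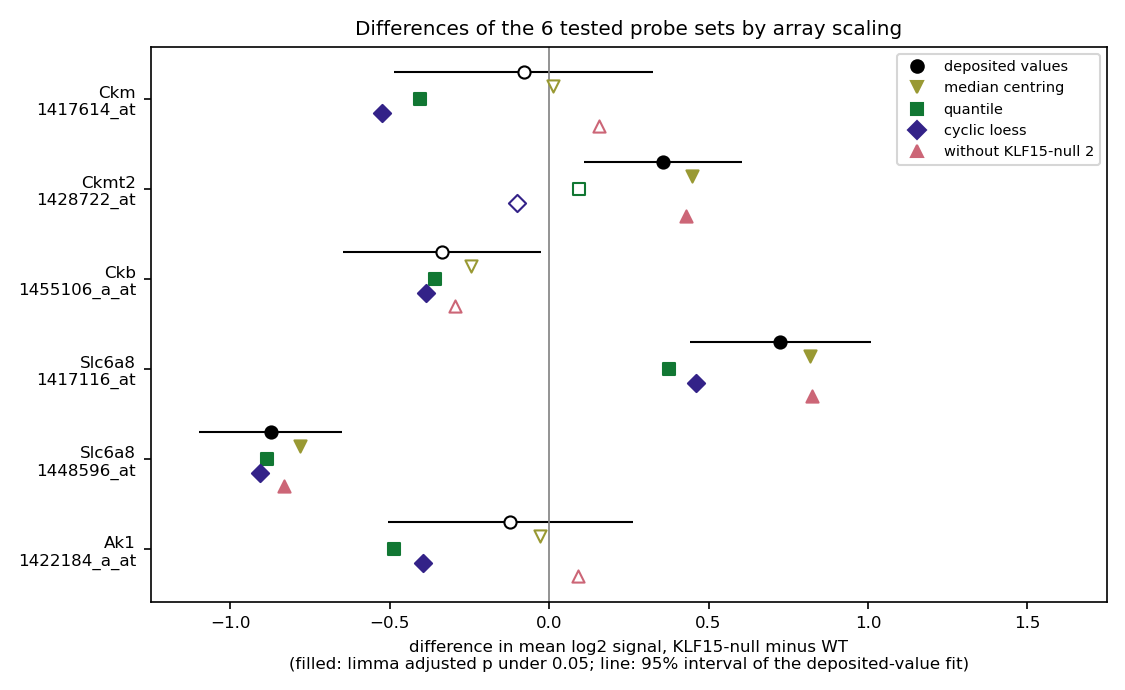
Difference in mean log2 signal (KLF15-null minus WT) of the 6 tested probe sets on the deposited values with its 95% interval, after 3 scalings of the arrays, and without KLF15-null array 2; filled symbols have a limma adjusted p under 0.05. Both Slc6a8 probe sets keep their directions, whereas Ckmt2 is called higher on the deposited values and after median centring, and not after quantile or cyclic loess normalization.

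Profiles over the 7 arrays were compared by the root mean square difference of log2 signals, each gene centred on its own mean, among 8403 other genes. The gene closest to Ckm was Ak1, at 0.05, followed by Myom1, which codes for the M-band protein myomesin, and Dgat2, an enzyme of triglyceride synthesis, each at 0.05. Closest to Ckmt2 were Suclg1, a subunit of succinyl-CoA ligase, at 0.03, Acyp2, a muscle acylphosphatase, at 0.04, and Cox5a of cytochrome c oxidase at 0.04. Closest to Ckb were Golim4 at 0.04, Dgcr2 at 0.08 and Rhog at 0.08. The brighter probe set of Slc6a8 lay closest to Mcfd2, Nrtn and Sub1, each at 0.04, and Ak1 to Zfp106 at 0.03, Coq9 at 0.04 and Sh3bp5 at 0.05. These are descriptions over 7 arrays that share genotype and overall brightness.

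Around the phosphagen system, 7 further groups of genes were measured on the brightest tested probe set of each gene. Over all 8404 genes tested 27.4% were called higher and 19.6% lower, with a median difference of 0.02. Of the other adenylate kinases 1 of 2 tested was called: Ak4, a mitochondrial matrix enzyme, rose by 0.73 (adjusted p = 0.00469), though its 2 other tested probe sets stood at 0.22 and -0.34 and were not called. Ak3, the matrix GTP:AMP phosphotransferase, stood at -0.32 (adjusted p = 0.103) and was called lower on its other probe sets, at -1.63 and -1.17. Of the nucleoside diphosphate kinases, which regenerate other nucleoside triphosphates from ATP, 2 of 5 were higher and none lower, with a median of 0.13. Nme1 rose by 0.64 and Nme2 by 0.50, but Nme2 was at 0.05 and no longer called after cyclic loess normalization. Nme4 and Nme5 were not called, at -0.22 and 0.13.

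Genes of adenine nucleotide and phosphate transport at the mitochondrion had 1 higher, 1 lower and 6 not called of 8. Their median was 0.18 on the deposited scale, -0.06 after quantile and -0.27 after cyclic loess normalization. Slc25a5, an adenine nucleotide translocase, rose by 0.61, and was not called after quantile normalization (0.19, adjusted p = 0.0639). Among its other tested probe sets, those at 1.21 and 1.17 were called higher and the rest, between 0.16 and 0.39, were not called. Slc25a23, a calcium-regulated ATP-magnesium/phosphate carrier, fell by 0.78. Slc25a4, the translocase of heart and muscle, stood at 0.25 (adjusted p = 0.0502) and the phosphate carrier Slc25a3 at 0.20, and both were called lower after cyclic loess normalization, at -0.26 and -0.28. Other probe sets of Slc25a4 were called higher on the deposited scale, at 0.88 (adjusted p = 0.00139) and 0.87 (adjusted p = 0.000327). The following genes were named after their values were seen. Vdac1, Vdac2 and Vdac3, the porins of the outer membrane, stood at 0.17, 0.09 and 0.22, not called, and at -0.11, -0.29 and -0.18 after quantile normalization. Other probe sets of Vdac1 were called lower at -2.35 (adjusted p = 0.000816) and higher at 0.65 (adjusted p = 0.00674), so Vdac1 has no single direction.

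Of 12 genes that handle AMP and purine nucleotides 5 were higher, 3 lower and 4 not called, with a median of 0.00; after quantile and cyclic loess normalization 4 were higher and 3 lower, with medians of -0.12 and -0.08. Ampd3, an AMP deaminase that draws AMP off as IMP, rose by 1.23 (SE 0.12, adjusted p = 3.17e-05), from 8.47 ± 0.16 (SD, n = 4) to 9.69 ± 0.09 (SD, n = 3). Aprt, which salvages adenine, rose by 0.95 and Nt5c, a cytosolic 5′-nucleotidase, by 0.69. Nt5c2, another cytosolic nucleotidase, fell by 1.41, with a KLF15-null mean of 5.56 below the filter level and a second probe set at 0.16, not called. Adk, adenosine kinase, named after its value was seen, was called higher at 0.33 (adjusted p = 0.0242), but its other tested probe set was called lower at -1.35 (adjusted p = 0.000132). The higher call of Adk was lost after quantile (-0.07) and cyclic loess normalization (0.01), with the replicate block (adjusted p = 0.113), and without WT arrays 1, 2 or 4 or KLF15-null arrays 1 or 3 (adjusted p from 0.0506 to 0.0763). Genes of AMP-activated protein kinase, the sensor of AMP, were counted together with Stk11 and Cab39, which act upstream of it. Of the 5 tested genes 0 were higher, 2 lower and 3 not called, with a median of -0.04. No probe set was assigned to Prkaa1 or Prkaa2 alone, the genes of the catalytic subunits. The upstream kinase Stk11 fell by 1.15, while its second probe set rose by 0.32. Prkag1 fell by 0.28 (adjusted p = 0.0395), a call lost without any single array other than KLF15-null array 1, and with the replicate block (adjusted p = 0.120), and its second probe set rose by 0.91. Prkab1 and Prkag2 stood at 0.33 and -0.04, not called, and a second probe set of Prkab1 was called lower at -1.24 (adjusted p = 1.14e-05). Of the 4 genes of this group with several tested probe sets, 2 were called in both directions, and Prkab1 and Cab39 were called only on a dimmer one.

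Of 7 tested genes of arginine, glycine and methyl group metabolism around creatine synthesis 5 were lower, 1 higher and 1 not called. Among all genes 19.6% were lower and 27.4% higher, and the group median was -0.56. These genes do not all supply precursors, so the median does not measure supply to creatine synthesis. Oat, ornithine aminotransferase, fell by 0.82, Gnmt, glycine N-methyltransferase, by 0.77 and Ahcyl1 by 0.85, whereas Ahcy, which clears S-adenosylhomocysteine, rose by 0.91. The medians were -0.70 and -0.72 after quantile and cyclic loess normalization, with 5 genes lower and 1 higher after each. The arginine transporter genes Slc7a1 and Slc7a2 and Arg1, Arg2 and Mat1a were below the filter level, as were Gatm and Gamt. Of 5 tested ATP users 2 were higher: Myh7, the slow myosin heavy chain, rose by 2.07 and Atp1b1 of the sodium pump by 0.36. The Atp1b1 call was lost without WT arrays 1, 2 or 4 or KLF15-null arrays 1 or 3 (adjusted p from 0.0866 to 0.129) and with the replicate block (adjusted p = 0.110). It was also lost after quantile (-0.02, adjusted p = 0.887) and cyclic loess normalization (0.09, adjusted p = 0.402), and other probe sets of Atp1b1 stood at -1.20, -0.27 and 0.62. Myh6 and Atp2a2, the fast cardiac myosin and the calcium pump, stood at 0.21 and 0.17, not called. Both were called lower after cyclic loess normalization, at -0.32 (adjusted p = 0.00527) and -0.34 (adjusted p = 0.00278), and neither was called after quantile normalization. A second probe set of Myh6, named after its value was seen, stood at -5.34. Other probe sets of Atp2a2 were called lower at -1.94 and -0.45 (adjusted p = 0.0109), and 1 at -0.21 was not called.

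**Figure D4:**
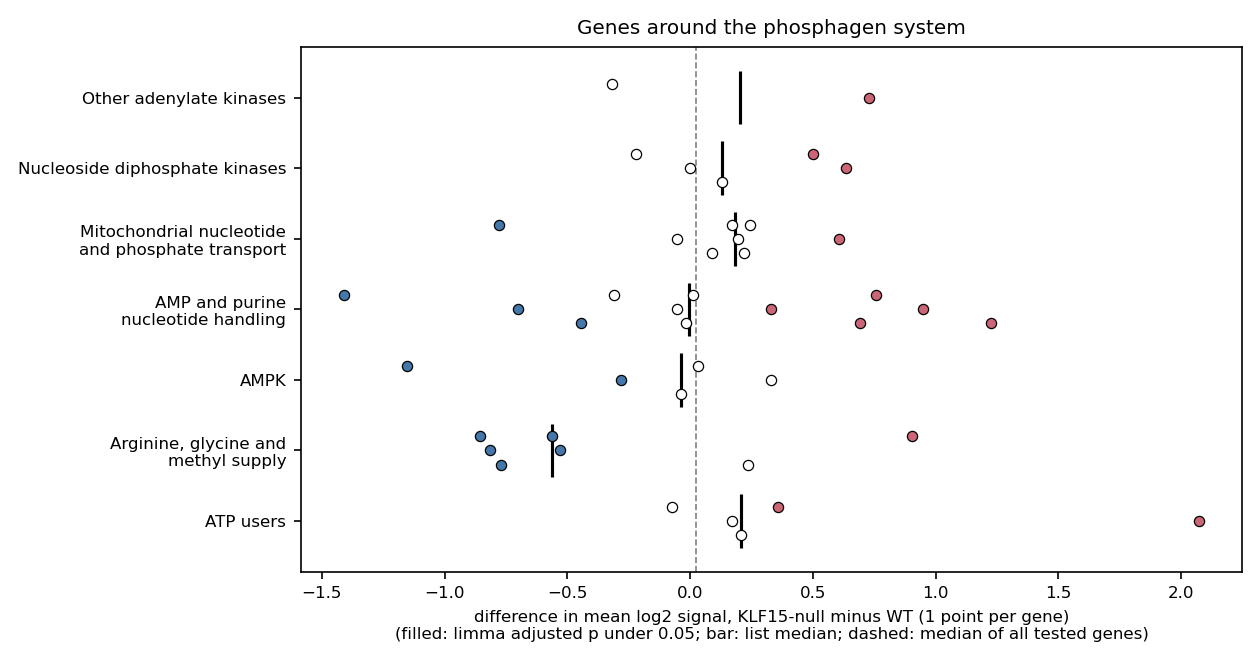
Difference in mean log2 signal (KLF15-null minus WT) of each gene in 7 groups around the phosphagen system, 1 point per gene on its brightest tested probe set; filled points have a limma adjusted p under 0.05, bars are group medians and the dashed line is the median of all genes tested (0.02). The group labelled arginine, glycine and methyl supply, whose genes do not all supply precursors, has its median at -0.56. The other groups have medians between -0.04 and 0.21.

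Cell type markers were counted in the same way, and over all genes tested 27.4% were called higher and 19.6% lower. Of the cardiomyocyte markers 2 of 11 were higher and none lower on the brightest probe set of each, with a median of 0.21, and after cyclic loess normalization 1 was higher and 8 lower. Dimmer probe sets of 2 of these markers, named after their values were seen, were called lower, at -2.56 (adjusted p = 1.39e-05) for Pln, which codes for the calcium pump inhibitor phospholamban, and at -5.34 (adjusted p = 2.7e-06) for Myh6. Of the skeletal muscle markers 0 of 4 were called, and Myh1, Myh4, Tnnt3, Mylpf and Actn3, which define fast skeletal muscle, another source of Ckm and Ak1, were below the filter level. Macrophage and monocyte markers had 4 of 6 higher, with summed signals of 11.06 to 11.78 in WT and 12.15 to 12.72 in KLF15-null hearts. Csf1r, 1 of these 4 and named after its values were seen, had other tested probe sets at 0.30 and -0.24, not called. Neutrophil markers had 2 of 3 higher. Endothelial markers had 3 of 6 lower (10.83 to 11.17 against 10.18 to 10.83), and fibroblast markers had 2 of 6 lower and 1 higher (12.40 to 13.26 against 12.10 to 12.34). Of the other markers, the fat gene Cidea was lower (-0.98) with Ucp1 and Adipoq below the filter level, 0 of 1 erythroid marker was called, and 1 of 2 kidney and liver markers was lower with Alb, Umod and Slc34a1 below the filter level. The part of these cells in the values of Ckb, Slc6a8 and Ampd3 was not tested.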

How the data were processed

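Biotin-labelled RNA of 7 heart samples was hybridised to Affymetrix 3' arrays, per the labels' protocols. The values are deposited log2 signals per probe set; per the submitters' processing notes GCOS was used, and neither the summarization of probes nor the scaling of arrays is stated there. Values were used as deposited. Genes were named through the platform annotation (20380 of 22626 probe sets with 1 symbol, 691 with several, 1555 with none; 0 symbols needed an update by Entrez number against RefSeq, GRCm38.p6).

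Probe sets whose mean over the 7 arrays reached the 40th percentile (log2 5.74) were tested, 13576 in all, with limma 3.58.1 in R 4.3.3 (no covariate, intensity trend, two-sided), and the fit was tested on simulated data. Pairs of creatine kinases were compared by exact permutation over 35 splits. A gene stood on its brightest tested probe set. Named were Klf15, all members, up to 4 genes per group by smallest p and the 3 most similar profiles per member. Members, lists and tests were chosen with earlier results of these data known. Alternatives were no filter, the 60th percentile as filter, 3 scalings (quantile, cyclic loess, median), no trend, array weights, a replicate block, a threshold of 0.1 and each array left out. A further one dropped all probe sets with the suffix _x_at, _s_at or _a_at, and with them the tested ones of Ckb and Ak1. Same-numbered arrays correlated at -0.11, 0.00 and 0.19 in their deviations from the group means, which gives no pairing. WT array 4 has no KLF15-null array of its number, so the replicate block gave the same differences as leaving it out. For arrays, their number limits the precision.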

Additional observations from a re-analysis of the deposited data

Results flagged for a closer look

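Within the 4 WT hearts, 3 of 13 sets of values held 1 array far from the rest, measured as its gap to the nearest array over the range of the group. For a single set chance gives about 1 in 20. The 13 sets share the same arrays and are not independent, so 3 of 13 does not show an excess over that rate. For the brighter Slc6a8 probe set, WT array 3 was highest at 10.53 against 10.24 to 10.25 (ratio 0.951). For the dimmer Slc6a8 probe set, WT array 1 was lowest at 8.55 against 8.70 to 8.71 (ratio 0.914). For the bright probe set of Ak1, WT array 3 was highest at 11.03 against 10.71 to 10.75 (ratio 0.851).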

How the results depend on the processing

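The number of probe sets called higher among the 6 tested was 2, and 1 with either quantile or cyclic loess scaling. The number called lower was 1, and 4 with each of these scalings, 2 with array weights and 2 at an adjusted p under 0.1. With single arrays left out, 1 to 2 were higher and 1 was lower. The replicate block left 2 higher and 1 lower, and changed no call of a creatine kinase, Slc6a8 or Ak1 probe set (Ckmt2 at 0.36, adjusted p = 0.0444). The calls of Prkag1, Atp1b1 and Adk were lost with it. Its differences equal those without WT array 4, which has no partner, so it is not a separate check from leaving that array out. In the limma fit with the replicate block, Ckmt2 minus Ckm was 0.50, Ckb minus Ckmt2 -0.63 and Ckb minus Ckm -0.13. That fit pooled the variance over these pairs, which depend on each other, so its p-values are not given.

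Both Slc6a8 probe sets kept their call and direction under all 16 alternatives tried for each. Signs turned for Ckm after median centring (0.012), with array weights (0.11) and without KLF15-null array 2 (-0.22 to 0.16 over arrays left out), for Ak1 with array weights (0.072) and without that array (-0.24 to 0.091), and for Ckmt2 after cyclic loess normalization (-0.10). Ckb minus Ckm turned to 0.14 after cyclic loess and 0.046 after quantile normalization, the latter added after seeing the data. Ckmt2 minus Ckm fell short after cyclic loess normalization (0.42), as did Ckb minus Ckmt2 (-0.28). With single arrays left out these pairs ranged from 0.27 to 0.54 and from -0.74 to -0.63, and Ckb minus Ckm from -0.45 to -0.13; with 6 arrays the exact adjusted p cannot fall under 0.05. Each of the 3 creatine kinases has 1 tested probe set, so averaging probe sets left the pairs the same. Among the genes around the system that are named here, signs turned after cyclic loess normalization for Slc25a4 (-0.26), Slc25a3 (-0.28), Myh6 (-0.32), Atp2a2 (-0.34), Vdac1 (-0.29), Vdac2 (-0.28) and Vdac3 (-0.13), and after quantile normalization for Atp2a2 (-0.019), Atp1b1 (-0.016), Adk (-0.068), Vdac1 (-0.11), Vdac2 (-0.29) and Vdac3 (-0.18). Vdac2 ranged from -0.0097 to 0.25 with single arrays left out. Prkag2 turned to 0.037 after quantile, 0.014 after cyclic loess and 0.055 after median scaling, and ranged from -0.22 to 0.058 with single arrays left out. The cause was not tested. The table gives no detection calls, so depth below the filter level is unknown.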
